A study of Mus musculus with 16 samples.

Results

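The respiratory chain genes were chosen by symbol and not by their values. They are the Nduf, Cox (subunit classes 4 to 8), Uqcr, Atp5, Sdha to Sdhd, Cycs and Cyc1 genes of the nucleus and every gene whose symbol starts with mt-. The rule found 120 of the 15876 genes measured. Of these, 90 are nuclear and 30 lie on the mitochondrial genome. The nuclear genes comprise 36 subunits of complex I, 7 complex I assembly genes, 4 subunits of complex II, 9 of complex III, 14 of complex IV, 15 of complex V, cytochrome c and 4 further genes (Cox7a2l, Atp5s, Atp5sl and Ndufa4l2). Complexes I to V thus hold 78 nuclear subunits. The mitochondrial genes comprise 9 that encode proteins, the ribosomal RNA mt-Rnr1 and 20 tRNAs.

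The respiratory chain passes electrons from NADH, at complex I, and from succinate, at complex II, through complex III and cytochrome c to oxygen at complex IV. Complexes I, III and IV pump protons across the inner mitochondrial membrane, and complex V uses the gradient to make ATP. Complex II is encoded wholly in the nucleus, whereas the other complexes need subunits from both genomes. Mitochondrial DNA is transcribed from both strands into long precursors, from which the tRNAs are cut out between the mRNAs. In the early embryo, tissues rely on glycolysis and oxidative phosphorylation to different degrees.

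Regions dissected from CD1 mouse embryos of 3 stages, named by embryonic day (E8.5, then E9.5, then E10.5), were sequenced as RNA in 16 libraries, 1 for each region and stage, to follow gene expression while the face forms. The labels name no treatment or mutation for any sample and do not give the number of embryos behind a library. The E8.5 neural class held neural epithelium of the caudal brain, of the floor plate and outside the floor plate (3 libraries), and E8.5 mesoderm stood alone. The E9.5 face class held cranial mesenchyme, mandibular arch and maxillary arch (3 libraries), and E9.5 epidermal ectoderm stood alone. The E10.5 face class held the lateral nasal prominence, mandibular arch, maxillary arch and medial nasal prominence (4 libraries), the E10.5 neural class held the lateral prominence, central and dorsal control neural epithelium (3 libraries), and the olfactory pit stood alone. Each class thus joins different regions, and the tests measure spread between regions and not between repeats of a region.

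Each deposited value is a ratio of a gene's level in a library to the gene's own median over the 16 libraries, so it compares libraries for 1 gene and never 1 gene with another. Values are given here as log2 ratios relative to the median gene of the same library. A value of 0 means that a gene's ratio equalled the ratio of the median gene in that library. A value of -1 means that its ratio was 2-fold lower, and neither gives the gene's level. As deposited, the median gene itself lay between -0.89 (E10.5 maxillary arch) and 0.29 (E8.5 mesoderm) on the log2 scale. The read depth of each library is unknown beyond the statement in the labels of more than 40000000 reads. In bulk tissue, fewer cells of a type and less RNA per cell cannot be told apart. The library labelled medial nasal prominence went against its label. A list of 8 facial mesenchyme markers averaged 0.00 log2 units above the lowest values of those genes there, with 7 of 8 at the lowest value, and 3.35 to 4.09 in the other 3 E10.5 face libraries, while its 8 neural markers averaged 3.95. The class comparisons are given with and without it. Blood markers (5 globin genes) averaged 0.00 to 0.64 in the E8.5 neural libraries, 5.57 to 8.52 in the E9.5 face libraries, 3.74 to 7.35 in the E10.5 face libraries and 2.92 to 3.11 in the E10.5 neural libraries. Neuron markers averaged 0.71 to 1.55 in the E8.5 and 1.59 to 2.28 in the E10.5 neural libraries, and muscle markers 0.90 to 1.02 and 0.00 to 0.31. Their part in the results below was not tested.

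Among the mitochondrial tRNAs, some followed the mRNAs beside them across the 16 libraries and others did not. The sequences of 4 are printed to show both kinds, with positions and sequences read from GRCm38 and the GENCODE M21 annotation. The tRNA mt-Tm (chrM:3845-3913, plus strand) ends at the base before mt-Nd2 and mt-Te (chrM:14071-14139, minus strand) stands directly beside mt-Nd6. The tRNA mt-Tt (chrM:15289-15355, plus strand) follows mt-Cytb with no base between them, and mt-Tn (chrM:5089-5159, minus strand) lies in a cluster of minus-strand tRNAs before mt-Co1.
mt-Tm: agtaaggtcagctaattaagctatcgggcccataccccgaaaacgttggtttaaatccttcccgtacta
mt-Te: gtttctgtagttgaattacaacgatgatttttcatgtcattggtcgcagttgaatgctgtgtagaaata
mt-Tt: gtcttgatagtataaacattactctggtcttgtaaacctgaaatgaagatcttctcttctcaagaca
mt-Tn: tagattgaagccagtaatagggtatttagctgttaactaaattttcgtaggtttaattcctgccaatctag

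Nuclear promoters are shown for members that fell in neural epithelium between E8.5 and E10.5, as reported further on, or that had the widest spread. RefSeq promoters of build GRCm38.p6, from 250 bases before to 50 bases after the gene start, were found for 75 of the 90 nuclear members and 65 of the 78 subunits. The letters CGCANGCG, the core bound by the regulator NRF1, stood on either strand in 25 of 65 subunit promoters (38.5%) and in 9.22% of the 27025 genes of the table. By complex, they stood in 10 of 32 promoters of complex I, 2 of 3 of complex II, 3 of 5 of complex III, 1 of 11 of complex IV and 9 of 14 of complex V. The letters CCGGAAGT, a core of ETS factors such as GABP, stood on either strand in 5 of 65 (7.69%, against 4.31% of all genes). The letters AAGATGGCG, a core of YY1, stood on either strand in 7 of 65 (10.8%, against 1.64% of all genes). The shares of all genes cover the whole promoter table, measured here or not. No set matched in expression or base content was compared, and the NRF1 and YY1 letters had been shortened after longer forms were searched. Of the 65 promoters, 4 held more than 1 of the 3 motifs, and matches of different motifs shared no bases. Before the gene start, the NRF1 letters were found in only Atp5g2, Ndufa11 and Ndufa7 of the nuclear subunits that fell in neural epithelium. They were also found there in Ndufa12, the member that rose. A link between these letters and the differences was not tested. Capitals mark the match in each 60-base stretch: the NRF1 letters in Atp5g2 (chr15:102671054-102671113, minus strand), Ndufa11 (chr17:56717678-56717737, plus strand) and Atp5k (chr5:108434414-108434473, minus strand), and the ETS letters in Uqcr11 (chr10:80406853-80406912, minus strand).
Atp5g2: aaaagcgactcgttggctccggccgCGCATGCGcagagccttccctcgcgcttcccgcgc
Ndufa11: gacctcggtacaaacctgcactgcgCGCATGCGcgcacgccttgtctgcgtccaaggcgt
Atp5k: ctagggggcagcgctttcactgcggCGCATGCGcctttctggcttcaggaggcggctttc
Uqcr11: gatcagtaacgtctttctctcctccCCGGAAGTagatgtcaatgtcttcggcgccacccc

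Across the 16 libraries, the medians of the nuclear subunits and of the mitochondrial mRNAs followed different patterns. The median of the 78 nuclear subunits was between 0.11 and 0.63 in 9 libraries and between -1.12 and -0.62 in the other 7. The 9 libraries were the 4 of E8.5 (0.11 to 0.54), E9.5 cranial mesenchyme (0.52) and maxillary arch (0.32), and the E10.5 lateral nasal prominence (0.44), mandibular arch (0.63) and olfactory pit (0.39). The 7 low libraries were E9.5 epidermal ectoderm (-0.88) and mandibular arch (-0.78), the E10.5 maxillary arch (-1.03), the library labelled medial nasal prominence (-0.62), and the E10.5 lateral prominence (-0.70), central (-1.12) and dorsal control (-1.0) neural epithelium. No median lay between -0.62 and 0.11, and no class other than E8.5 neural and E10.5 neural was wholly on 1 side. The heat map of subunits shows that most genes of complexes I, III, IV and V were low in those 7 libraries.

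**Figure D1:**
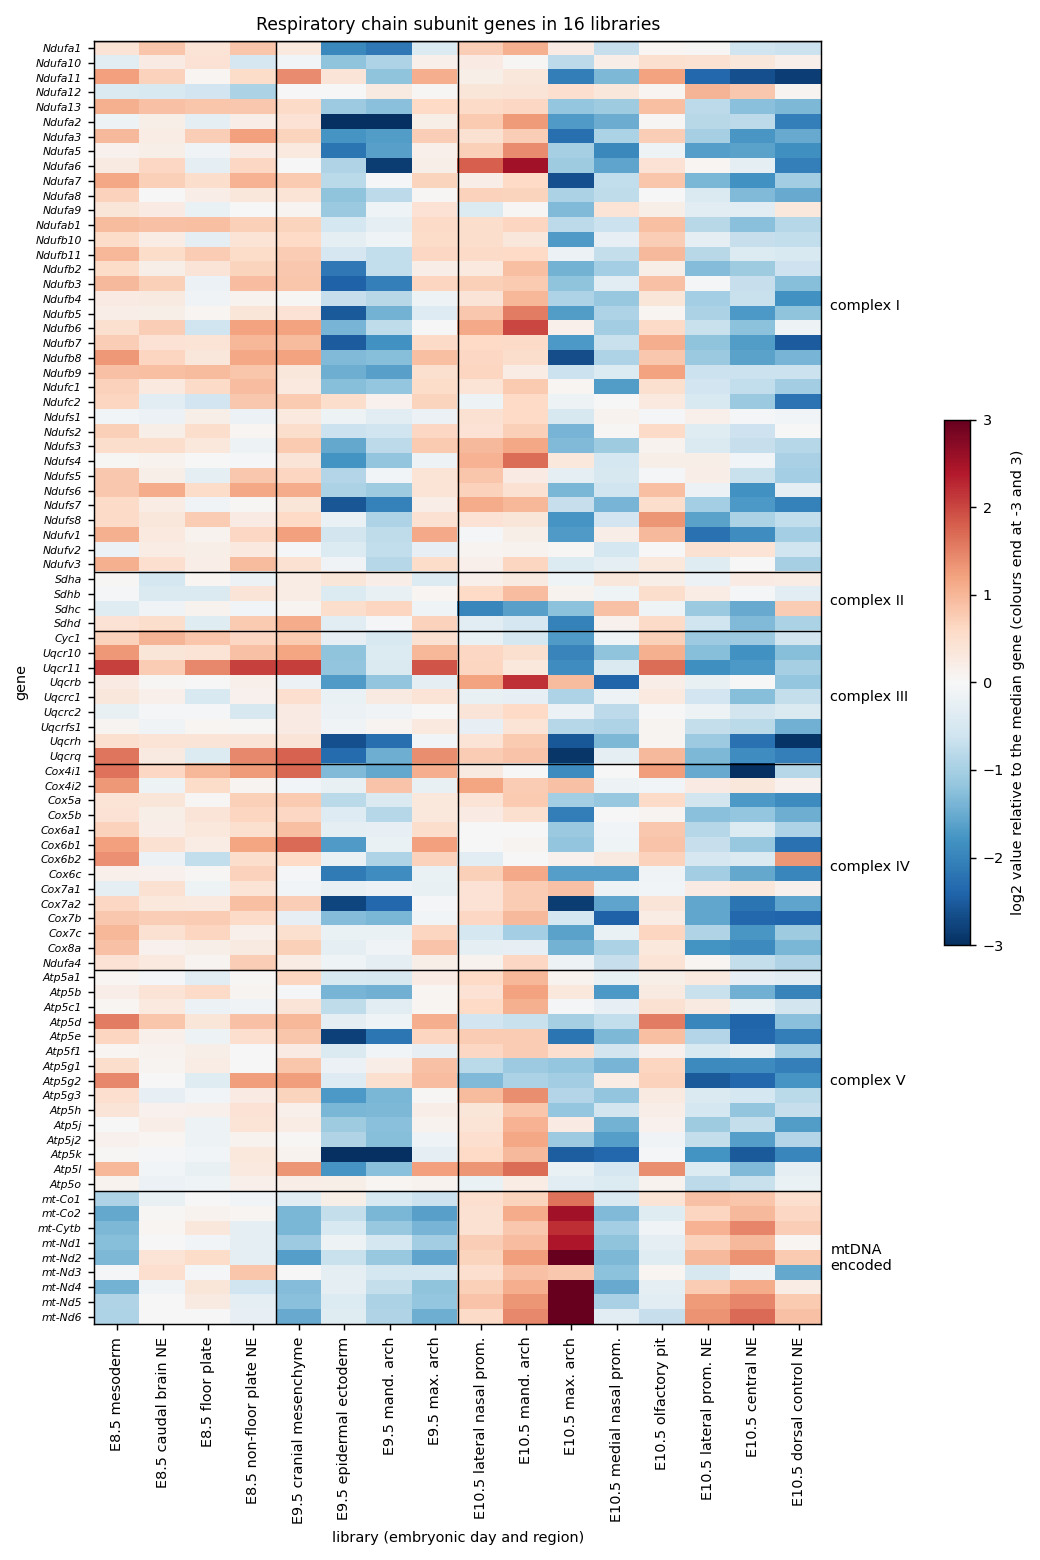
Heat map of the 78 nuclear subunit genes by complex and the 9 mitochondrially encoded protein genes (rows) in 16 libraries (columns, ordered by stage). Colour is the log2 value relative to the median gene of the library, ending at -3 and 3. Columns such as E9.5 epidermal ectoderm and E10.5 maxillary arch are blue over most nuclear rows, and the mitochondrial rows are darkest red in the E10.5 maxillary arch.

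The complexes differed in how far their medians ranged from the lowest to the highest library. The range was 4.93-fold in complex V, 4.64-fold in complex III, 4.28-fold in complex IV and 3.31-fold in complex I. Complex II, which feeds electrons from succinate, ranged 2.05-fold, and the complex I assembly genes ranged 1.49-fold. The mitochondrial protein genes ranged 14.3-fold, from E9.5 cranial mesenchyme (-1.31) to the E10.5 maxillary arch (2.53). The sizes and their order depended on the scaling. On the values as deposited, complex III ranged 10.3-fold, complex IV 8.49-fold, complex I 7.11-fold, complex V 4.75-fold, complex II 4.0-fold, the assembly genes 2.91-fold and the mitochondrial protein genes 7.32-fold, with the E10.5 maxillary arch lowest in each nuclear group and highest in the mitochondrial one. The cytosolic ribosomal protein genes (85 genes), which are no part of the chain, ranged 5.46-fold, and their median was low in the same 7 libraries, between -1.64 (E10.5 dorsal control neural epithelium) and -0.72 (E9.5 mandibular arch), against 0.36 to 0.81 in the other 9. Mitochondrial ribosomal protein genes (76 genes) ranged 2.45-fold and were likewise below 0 in those 7 and above 0 in the other 9.

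Within each complex, some subunits hardly varied and others varied widely. In complex I, Ndufs1, the largest iron-sulphur subunit of the electron path, had the smallest SD over the 16 libraries (0.28) and lay between -0.48 and 0.59. Ndufa2, an accessory subunit, had the largest SD (1.54), and stood at -4.32 in E9.5 epidermal ectoderm, -3.56 in the E9.5 mandibular arch and 1.27 in the E10.5 mandibular arch. In complex II, the flavoprotein Sdha, which oxidises succinate, had an SD of 0.26 and the membrane anchor Sdhc an SD of 0.90. Sdhc did not follow the other nuclear subunits: it was low in the E10.5 lateral nasal prominence (-1.96), mandibular arch (-1.64), maxillary arch (-1.22), lateral prominence (-1.12) and central neural epithelium (-1.51), and high in the library labelled medial nasal prominence (0.88) and in dorsal control neural epithelium (0.77). In complex III, the core protein Uqcrc2 had an SD of 0.35 and the small subunit Uqcrq one of 1.57, from -2.92 in the E10.5 maxillary arch to 1.77 in E9.5 cranial mesenchyme. In complex V, Atp5o, a subunit of the peripheral stalk, had an SD of 0.31, and Atp5k, a small membrane subunit, the largest SD of any nuclear member (1.62). Atp5k stood between -0.29 and 0.97 in the 9 libraries named above and between -4.63 and -1.80 in the other 7.

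In complex IV, the largest SD was that of Cox4i1 (1.53), a nuclear subunit that contacts the catalytic core. Cox4i1 stood at 1.63 in E8.5 mesoderm, 0.62, 0.99 and 1.29 in the E8.5 neural libraries, and -1.52, -3.64 and -0.87 in the E10.5 neural libraries. The isoforms tied to particular tissues were at their lowest values in many libraries. Cox4i2, the alternative form of Cox4i1, was at its shared lowest value in 11 of 16 libraries and reached 3.02 times that value in E8.5 mesoderm. Cox7a1, the heart and muscle form of Cox7a2, was at its lowest value in 14 libraries and reached 1.53 times it in E8.5 caudal brain neural epithelium. Ndufa4l2, a relative of the complex IV subunit Ndufa4, was above its lowest value only in E8.5 mesoderm, at 4.45 times. Cox6b2, the testis form of Cox6b1, was at its lowest value in 6 libraries and above it in 10, and reached 5.36 times it in E8.5 mesoderm. In all, 10 of the 120 members had a lowest value shared by libraries, which are ties that appear to mark a lower limit of the deposited values.

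Large ranges were common among the members. As deposited, the highest value was at least 8 times the lowest in 60 of the 120: 19 of complex I, 1 complex I assembly gene, 2 of complex II, 6 of complex III, 8 of complex IV, 6 of complex V, 1 other nuclear gene, 5 mitochondrial protein genes, mt-Rnr1 and 11 tRNAs. Among the 110 members with no shared lowest value the share was 51.8%, against 20.3% of the 7082 genes of that kind. The ribosomal RNA mt-Rnr1 was a case apart. It stood at 27134, 39177 and 31599 times its lowest value in the E8.5 caudal brain library, the E8.5 non-floor plate library and E9.5 cranial mesenchyme, and at its shared lowest value in the other 13 libraries. In the same 3 libraries the medians of the mitochondrial mRNAs were 0.02, -0.26 and -1.31. The last, of E9.5 cranial mesenchyme, is the lowest of the 16 libraries.

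**Figure D2:**
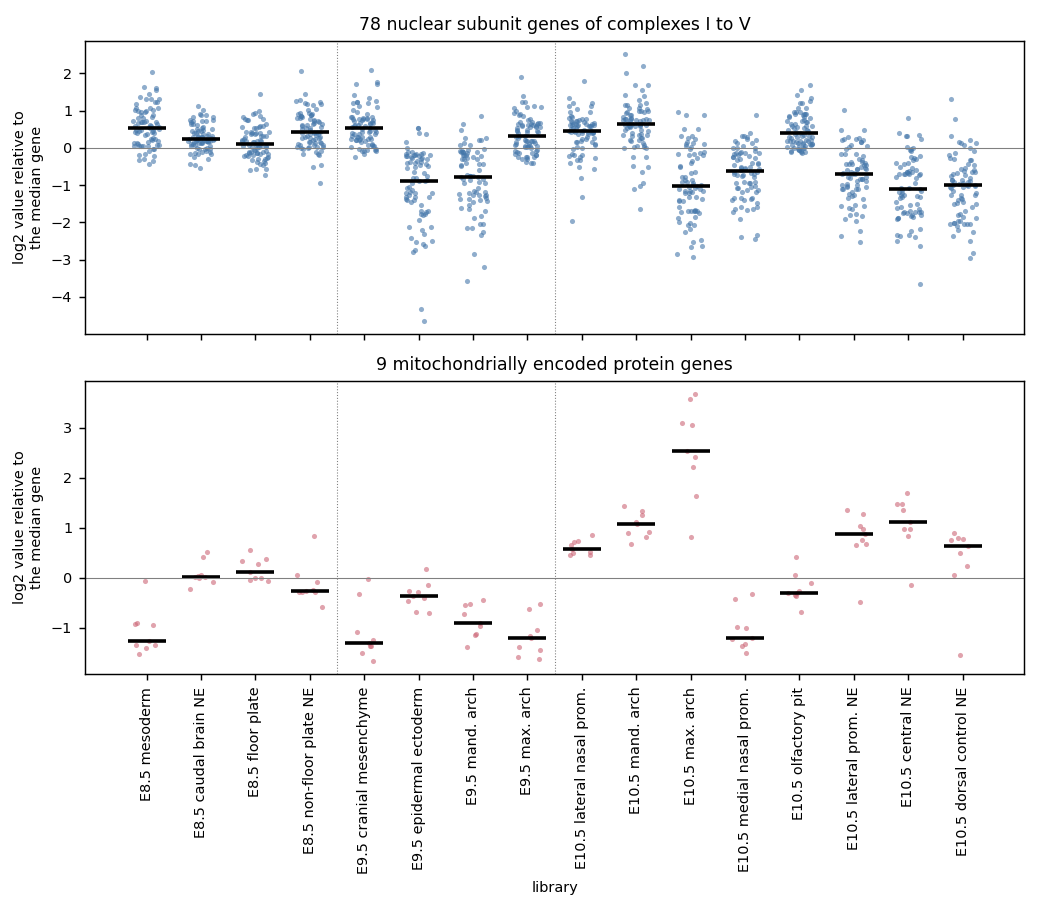
Each point is a gene in a library, as log2 value relative to the median gene, for the 78 nuclear subunits (top) and the 9 mitochondrially encoded protein genes (bottom). Black bars are medians. The nuclear medians lie either at 0.11 or above or at -0.62 or below, and the mitochondrial medians run from -1.31 to 2.53.

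Nuclear and mitochondrially encoded subunits stood farthest apart in the E10.5 maxillary arch. There the nuclear median was -1.03 and that of the 9 mitochondrial protein genes 2.53, a difference of -3.56 on the log2 scale. The nuclear median was also below the mitochondrial one in the 3 E10.5 neural libraries, by 1.58 (lateral prominence), 2.23 (central) and 1.64 (dorsal control) on that scale. It was above the mitochondrial one by 1.82 in E8.5 mesoderm, 1.83 in E9.5 cranial mesenchyme and 1.53 in the E9.5 maxillary arch. Both were low in the E9.5 mandibular arch and the library labelled medial nasal prominence, with nuclear medians of -0.78 and -0.62 and mitochondrial medians of -0.91 and -1.20. In the E10.5 mandibular arch and lateral nasal prominence both were high, at 0.63 and 0.44 for the nuclear and 1.08 and 0.57 for the mitochondrial genes. Within complexes the picture was the same: in the E10.5 maxillary arch the nuclear less mitochondrial difference was -4.11 in complex I, -3.91 in complex III (with mt-Cytb alone) and -3.23 in complex IV.

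The mitochondrial mRNAs moved as a block with 1 exception. Over the 16 libraries, which share their scaling, Pearson's r between pairs of the 8 protein genes other than mt-Nd3 was at least 0.90, with a median of 0.96. The core complex I subunit mt-Nd2 had the largest SD (1.42). It stood at 0.41, 0.56 and -0.29 in the E8.5 neural libraries, -1.66, -1.13 and -1.58 in E9.5 cranial mesenchyme, mandibular and maxillary arch, 0.66, 1.25, 3.67 and -1.36 in the E10.5 lateral nasal prominence, mandibular arch, maxillary arch and library labelled medial nasal prominence, and 0.98, 1.35 and 0.78 in the E10.5 neural libraries. All E9.5 face libraries were thus below, and all E10.5 neural libraries above, the E8.5 neural ones. The smallest SD was that of mt-Co1 (0.67), the catalytic subunit of complex IV, which ran from -0.93 in E8.5 mesoderm to 1.63 in the E10.5 maxillary arch. The exception, mt-Nd3, had r of 0.29 to 0.47 with the other 8. Its 3 E10.5 neural values (-0.49, -0.15 and -1.54) were below its E8.5 neural values (0.51, -0.05 and 0.84), the opposite order to mt-Nd2. At 348 bases, mt-Nd3 is the shortest of the 9 genes.

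The tRNAs were less uniform than the mRNAs. Of the 4 printed above, mt-Tm had r of 0.92 with mt-Nd2 beside it, and mt-Te r of 0.89 with mt-Nd6 beside it and 0.93 with mt-Nd1. In contrast, mt-Tt had r of -0.20 with the adjoining mt-Cytb, and mt-Tn r of -0.17 with mt-Nd2, the nearest measured mRNA. The tRNA mt-Te stood at -1.03, -1.54 and -1.13 in the E9.5 face libraries and at 1.79, 2.46, 4.07 and -1.39 in the 4 E10.5 face libraries, the last being the library labelled medial nasal prominence. Its neighbour mt-Nd6, the 1 mRNA on the minus strand, stood at -1.50, -0.91 and -1.45 and at 0.57, 1.44, 3.58 and -0.32 in the same libraries. The tRNA mt-Tp was high in E8.5 caudal brain neural epithelium (2.90) and floor plate (2.77). A tRNA of 59 to 75 bases is little longer than the 50-base reads, the sources used here do not say whether strand was kept, and mt-Nd5 and mt-Nd6 overlap on opposite strands, so reads of adjoining or overlapping genes may not have been separated.

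**Figure D3:**
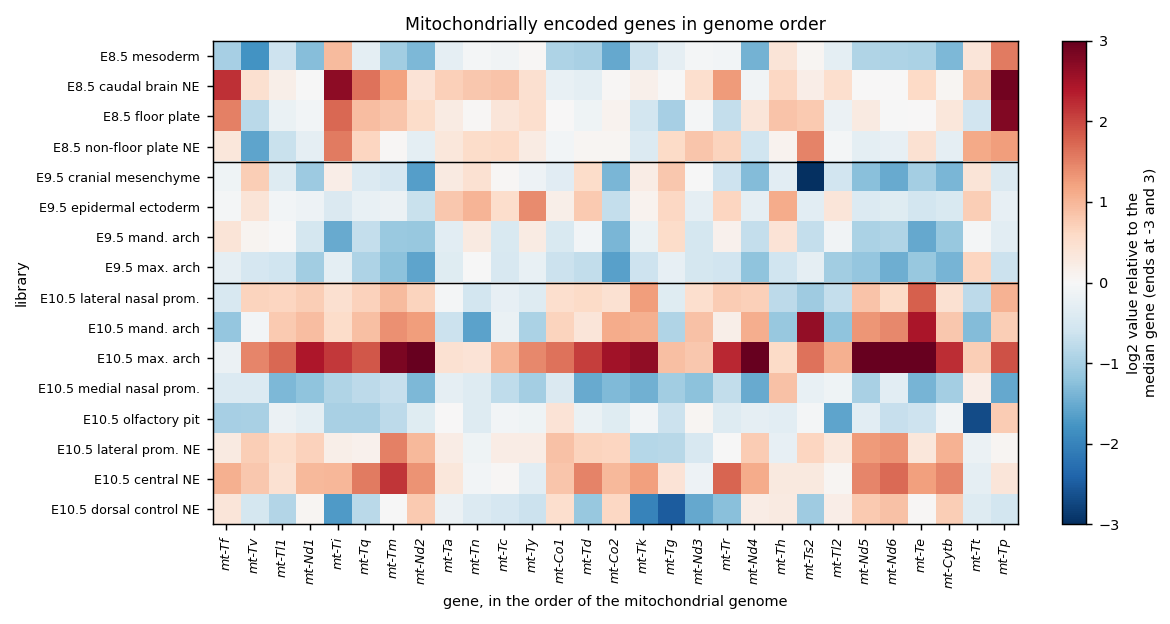
Heat map of 29 mitochondrially encoded genes (columns, in genome order; mt-Rnr1 is left out) in 16 libraries (rows). Colour is the log2 value relative to the median gene, ending at -3 and 3. The mRNA columns other than mt-Nd3 share 1 pattern with red in the E10.5 maxillary arch, while tRNA columns such as mt-Tn and mt-Tt differ from it.

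In neural epithelium, nuclear subunits were lower at E10.5 than at E8.5. With limma over the 4 classes of 3 or 4 libraries (13 libraries) and Benjamini-Hochberg adjustment over 12343 genes, 118 of the 120 members could be tested, and a call means an adjusted p under 0.05. Of the members, 1 rose and 17 fell, where 5.76% of all genes rose and 7.05% fell. The 17 are 16 nuclear subunits and the tRNA mt-Tp. The median difference of the 77 tested nuclear subunits was -1.26 on the log2 scale, with 69 of 77 below 0, against a median of 0.03 over all genes. By complex, 1 gene rose and 6 fell of 36 in complex I, 2 fell of 9 in complex III, 5 of 13 in complex IV and 3 of 15 in complex V. In complex II (4 genes), cytochrome c and the complex I assembly genes (7 genes), 0 passed. Without regard to the test, all E10.5 libraries lay below all E8.5 libraries in 67 of 118 members and above them in 10, where 18.9% and 23.8% of all genes tested did so. The 67 include 57 of 77 nuclear subunits, and the 10 include 7 of 9 mitochondrial mRNAs.

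In complex V, both Atp5g1 and Atp5g2 fell, which encode the same mature ring subunit through which protons pass, and so did Atp5d, the delta subunit of the turning central stalk. Atp5g1 stood at 0.08, 0.22 and 0.02 in the E8.5 caudal brain, floor plate and non-floor plate libraries, and at -1.91, -1.88 and -2.05 in the E10.5 lateral prominence, central and dorsal control libraries. The classes did not overlap, and Atp5g1 was 4.15-fold lower (log2 difference -2.05 ± 0.24 SE, limma adjusted p = 0.000547). Atp5g2 stood at 0.00, -0.36 and 1.26 at E8.5 and at -2.53, -2.35 and -1.78 at E10.5 (log2 difference -2.52 ± 0.46 SE, limma adjusted p = 0.00663). Atp5d stood at 0.82, 0.37 and 0.88, and then at -1.96, -2.40 and -1.26 (log2 difference -2.57 ± 0.36 SE, limma adjusted p = 0.0015). The third gene for the ring subunit, Atp5g3, was not called and stood at -0.24, -0.07 and 0.24 at E8.5 and -0.43, -0.53 and -0.82 at E10.5.

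In complex IV, the genes that fell were Cox8a, Cox7c, Cox7b, Cox6b1 and Cox4i1, all nuclear subunits around the catalytic core. Cox8a stood at 0.12, 0.16 and 0.26 at E8.5 and at -1.78, -1.91 and -1.38 at E10.5 (log2 difference -1.87 ± 0.35 SE, limma adjusted p = 0.00669). Cox7b stood at 0.74, 0.76 and 0.58, and then at -1.56, -2.36 and -2.37, a 6.92-fold difference (limma adjusted p = 0.0227). The log2 differences of Cox4i1, Cox6b1 and Cox7c were -2.98, -1.98 and -1.65. The mitochondrially encoded core subunits mt-Co1 and mt-Co2, which were not called, had log2 differences of 0.84 and 0.69.

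In complex III, Cyc1, the haem protein that hands electrons to cytochrome c, and Uqcr11, a small accessory subunit, fell. Cyc1 stood at 1.01, 0.84 and 0.63 at E8.5 and at -1.10, -1.08 and -0.55 at E10.5 (log2 difference -1.74 ± 0.42 SE, limma adjusted p = 0.0194). Uqcr11 stood at 0.75, 1.44 and 2.06, and then at -1.84, -1.72 and -0.99, a 7.64-fold difference (limma adjusted p = 0.0201). The mitochondrial subunit of complex III, mt-Cytb, was not called (log2 difference 1.04 ± 0.58 SE, limma adjusted p = 0.256).

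In complex I, the genes that fell were Ndufv1, the NADH-binding flavoprotein, Ndufab1, the mitochondrial acyl carrier protein, and the accessory subunits Ndufa11, Ndufa13, Ndufa7 and Ndufb7. Ndufab1 stood at 0.88, 0.91 and 0.71 at E8.5 and at -0.82, -1.26 and -0.86 at E10.5 (log2 difference -1.81 ± 0.40 SE, limma adjusted p = 0.0139). Ndufv1 stood at 0.30, 0.11 and 0.62, and then at -2.23, -1.87 and -1.01 (log2 difference -2.05 ± 0.59 SE, limma adjusted p = 0.0396). Ndufa11 showed the widest difference of these genes, 8.25-fold, from 0.69, 0.07 and 0.55 to -2.35, -2.64 and -2.83. Its value in E10.5 central neural epithelium is the lowest of the gene and shared with the E10.5 maxillary arch, so the fitted fold depends on that limit; Ndufb7 shares its lowest value between the E10.5 dorsal control neural epithelium and the maxillary arch in the same way. The 1 member that rose was Ndufa12, an accessory subunit near the NADH-oxidising module, at -0.45, -0.57 and -0.95 at E8.5 and 1.02, 0.80 and 0.07 at E10.5 (log2 difference 1.29 ± 0.26 SE, limma adjusted p = 0.00999).

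The mitochondrially encoded mRNAs stood otherwise than the nuclear subunits. Their median difference was 0.81, 8 of 9 were above 0, and limma called 0 of 9. An unadjusted limma p under 0.05 was found for 1 of the 9, and for 3642 of the 12343 genes tested. On simulated data, the fit of this comparison called 15% of genes changed by 1 on the log2 scale and 70% of those changed by 2. There, only 100 genes were changed by each size. The adjustment is stricter where fewer genes change, so these shares may understate what the real fit could call. The absence of calls still does not show that these mRNAs were unchanged. The values ranged from -1.16 ± 0.53 SE for mt-Nd3 (adjusted p = 0.164) to 1.39 ± 0.71 SE for mt-Nd6 (adjusted p = 0.217). The contrast between the 2 genomes was not itself tested, since a test over members chosen with results known was not made. Without the library labelled medial nasal prominence, which is in neither class but adds to the shared estimate of the spread, 2 members rose and 27 fell, where 9.16% of all genes rose and 10.4% fell, and mt-Nd3 was among those that fell (adjusted p = 0.0423). On the values as deposited, without relation to the median gene, 0 members rose and 30 fell (background 1.52% and 8.80%), and the all-gene median shifted from 0.03 to -0.28.

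Transcript length moved with these differences. The longest annotated transcript of the nuclear subunits had a median of 1025.5 bases, against 3595 bases for the 7082 genes with no shared lowest value, and 37 of 78 subunits (47.4%) were under 1000 bases, against 6.07%. Other genes of at least 700 and under 1000 bases had medians of -0.66, -0.85 and -0.90 in the E10.5 lateral prominence, central and dorsal control neural libraries, and 0.31, 0.23 and 0.45 in the E8.5 caudal brain, floor plate and non-floor plate libraries. The 13 subunits of at least 2000 and under 4000 bases were also low in the E10.5 libraries, at -0.57, -1.26 and -0.86, where other genes of that length stood at -0.04, -0.06 and -0.07. Each value was also taken relative to other genes of its length range, an alternative chosen after seeing the data. The subunit median was then -0.57 in place of -1.26, and 1 of 118 members rose and 9 fell (background 7.33% and 6.14%). The count that fell is thus near the share of all genes, and the count that rose is below it. Those that fell were Atp5g1, Atp5d, Ndufab1, Ndufa11, Cox8a, Cox7b, Cyc1, Uqcr11 and Ndufb7, and Ndufa12 rose. Leaving out 1 library of the 13 at a time, the number that fell lay between 4 and 27, and the share of all genes moved too. It was 4 of 117 without central neural epithelium (3.40% of all genes), which is near that share. It was 27 without the library labelled medial nasal prominence (10.4%). It was 7, 11 and 8 without E8.5 caudal brain, floor plate or non-floor plate (3.83%, 5.30% and 2.99%). Without the E10.5 lateral prominence or dorsal control library it was 10 and 11 (4.27% and 5.31%), and 26 without the E10.5 maxillary arch (8.01%). Atp5g1, Atp5g2, Atp5d, Cox8a and Ndufa12 passed each time.

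**Figure D4:**
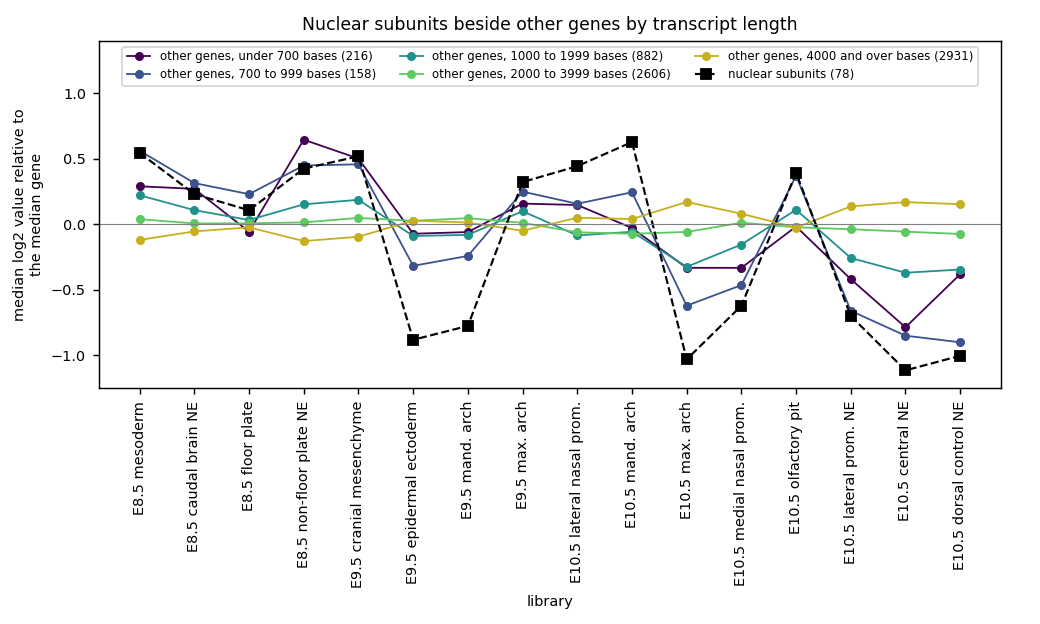
Median log2 value relative to the median gene in each of the 16 libraries, for the 78 nuclear subunits (black squares) and for other genes with no shared lowest value by length of the longest annotated transcript (coloured lines). The line of the second range, which starts at 700 bases, is low in the same 7 libraries as the subunits, with smaller departures, for example -0.32 against -0.88 in E9.5 epidermal ectoderm.

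In the face, E10.5 against E9.5, few members passed while the library labelled medial nasal prominence was included. Of 118 members, 1 rose and 4 fell by limma, where 3.52% of all genes rose and 3.09% fell. The count that fell is near the share of all genes, and the count that rose is below it. The member that rose was mt-Nd6 (log2 difference 2.60 ± 0.67 SE, adjusted p = 0.042), whose 4 E10.5 values given above all lie above its 3 E9.5 values. The 4 that fell were Atp5g1, Atp5g2, Atp5d and Cox8a, which were also called lower in neural epithelium, in the same fit. Atp5g1 stood at 0.83, 0.21 and 0.88 in E9.5 cranial mesenchyme, mandibular and maxillary arch, and at -0.80, -1.10, -1.17 and -1.39 in the E10.5 lateral nasal prominence, mandibular arch, maxillary arch and library labelled medial nasal prominence (log2 difference -1.75 ± 0.22 SE, limma adjusted p = 0.00422). Atp5g2 stood at 1.26, 0.48 and 0.92, and then at -1.32, -0.95, -1.04 and 0.22, with a log2 difference of -1.66. The log2 differences of Atp5d and Cox8a were -1.39 and -1.21. Neither stage's values of Atp5g1 or Atp5g2 reached those of the other. The median of the 77 nuclear subunits was -0.14 (44 of 77 below 0), against 0.08 over all genes. Endothelial markers averaged 2.65 to 2.93 in the E9.5 and 1.23 to 1.61 in the E10.5 face libraries and muscle markers 0.67 to 1.94 and 0.02 to 0.59, with no overlap between the stages, and their part in the result was not tested. On the values as deposited 1 member rose and 12 fell (background 0.535% and 15.3%), the subunit median was -0.79, and the all-gene median was -0.57.

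Leaving out the library labelled medial nasal prominence, 16 of 118 members rose and 8 fell (background 13.1% and 10.2%). Over all members, the count that rose is near the share of all genes and the count that fell is below it. All 9 mitochondrially encoded mRNAs then rose, with a median log2 difference of 2.70, from 1.09 for mt-Nd3 and 1.41 for mt-Co1 to 3.15 for mt-Nd6 and 3.32 for mt-Nd2, which was 9.98-fold higher (limma adjusted p = 0.00447). With that library their median was 1.92, and 8 of 9 had an unadjusted limma p under 0.05, without the share of all genes at that threshold beside it. The tRNAs mt-Te (16-fold, adjusted p = 0.000885), mt-Tm, mt-Tp, mt-Tq and mt-Tl1 rose too, as did the complex III subunit Uqcrb (4.0-fold). Atp5s was called as well, but it was at its shared lowest value in the mandibular and maxillary arch of E10.5 and in E9.5 cranial mesenchyme and mandibular arch, where its deposited values cannot differ, so its difference comes mostly from the scaling to the median gene. The members that fell without it were Atp5g1, Atp5g2, Atp5d, Cox8a, Cox7c, the complex II anchors Sdhc and Sdhd, and the complex III core protein Uqcrc1. The subunit median without it was 0.03. With any other single library left out, 0 or 1 member rose and 1 to 4 fell. Of all genes, 0.234% to 3.31% rose and 0.292% to 2.99% fell in those fits. Atp5g1 was the 1 member called each time. Relative to genes of the same length range, 3 members rose (mt-Nd6, mt-Co2 and mt-Cytb) and 2 fell (Atp5g1 and Atp5d), where 3.44% and 2.35% of all genes did. For mt-Nd3 the direction depended on the scaling: with all 4 E10.5 libraries, its difference was 0.61 relative to the median gene and -0.043 as deposited.

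Between neural epithelium and face at E10.5, no member passed by limma with all 4 face libraries: 0 were higher and 0 lower, where 0.0243% of all genes passed in each direction. An unadjusted limma p under 0.05 was found for 19 members, and the share of all genes at that threshold is not given here. The nuclear subunit median was -0.81, with 71 of 77 below 0, against -0.15 over all genes, and the mitochondrial protein median was 0.00. Without the library labelled medial nasal prominence, 0 members were higher and 8 lower in neural epithelium (background 3.49% and 3.77%). They were Cox7b (log2 difference -2.45), Uqcrb (-1.90), the complex V subunits Atp5b (-2.03), Atp5j (-1.73), Atp5f1 (-1.22) and Atp5g1 (-0.92), and the mitochondrial genes mt-Te (-2.24) and mt-Nd3 (-1.46). Atp5b encodes the catalytic beta subunit, and stood at 0.43, 1.2 and 0.32 in the E10.5 lateral nasal prominence, mandibular and maxillary arch, at -1.73 in the library labelled medial nasal prominence and at -0.67, -1.45 and -2.01 in the neural libraries. Relative to genes of the same length range, 0 members were higher and 0 lower with all 4 face libraries (background 0.0682% and 0.0512%). This comparison shares its E10.5 libraries with the 2 stage comparisons above, so the 3 are not independent.

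The mandibular and maxillary arches were compared with 1 library a side and therefore no test. A gene was counted when the 2 libraries differed by at least 2-fold relative to the median gene. At E9.5, nuclear subunits were lower in the mandibular than in the maxillary arch: 1 of 77 was higher and 43 lower, with a median of -1.17. Over all members, 2 were higher and 45 lower of 117, where 4.02% and 7.42% of all genes were. At E10.5 the order was the opposite: 51 of 75 nuclear subunits were higher in the mandibular arch and 0 lower, with a median of 1.53, and 56 members were higher and 23 lower of 113 (background 9.32% and 10%). By complex, the medians at E9.5 and E10.5 were -1.38 and 1.85 in complex I, -0.92 and 1.27 in complex III, -1.16 and 1.48 in complex IV and -1.21 and 0.90 in complex V. Complex II did not change order, at 0.17 and 0.61. Of the 75 subunits compared in both pairs, 34 were lower at E9.5 and higher at E10.5, which is 81.0% of the 42 lower at E9.5 and 66.7% of the 51 higher at E10.5. Of the genes that are no members, 2.67% did so, or 36.6% and 28.9% of the same lists. Cox7a2, a small complex IV subunit, stood at -2.35 in the mandibular and -0.06 in the maxillary arch at E9.5, and at 0.76 and -2.85 at E10.5. Ndufa2 stood at -3.56 and 0.18, and then at 1.27 and -1.70. As deposited, the subunit medians were -1.22 and 1.66, so the directions did not depend on the scaling.

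**Figure D5:**
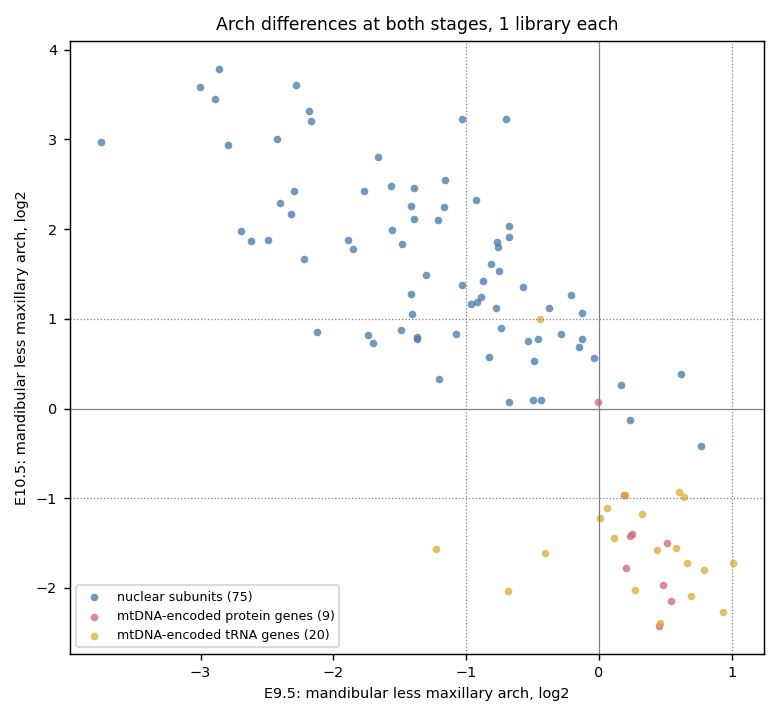
Mandibular less maxillary arch, as log2 difference relative to the median gene, at E9.5 (horizontal) and at E10.5 (vertical), with 1 library each. Points are genes above a shared lowest value in at least 1 library of each pair, and dotted lines mark 2-fold. Most nuclear subunits lie at the upper left, and the mitochondrially encoded genes lie mostly at the lower right.

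The mitochondrially encoded genes followed another order. At E9.5, 0 of 9 protein genes differed 2-fold between the arches (median 0.25). At E10.5, 7 of 9 were lower in the mandibular arch (median -1.50), as were 16 of 20 tRNAs. From E9.5 to E10.5, all 9 were higher in each arch, with medians of 3.88-fold in the mandibular and 17.7-fold in the maxillary arch, and both directions held as deposited (log2 medians 1.02 and 3.03). Nuclear subunits were higher at E10.5 in the mandibular arch (45 of 76 higher and 3 lower, median 1.42) and lower in the maxillary arch (1 higher and 46 lower of 76, median -1.35). As deposited these medians were 0.48 and -2.47, so the difference in the mandibular arch was smaller and that in the maxillary arch larger. The 4 complex II genes had medians of -0.18 and -0.52. Past 2-fold, 1 was higher and 1 lower in the mandibular arch, and 0 were higher and 2 lower in the maxillary arch. Over all members, 64 were higher and 11 lower of 115 in the mandibular arch (background 15.0% and 13.6%), and 27 higher and 48 lower of 116 in the maxillary arch (background 18.5% and 14.2%). The members lower at E10.5 in both arches were 3: Atp5g1, Atp5g2 and Sdhc. Those higher in both were 17: the 9 mitochondrial mRNAs, 7 tRNAs and Uqcrb. The share of all genes past 2-fold alike in both arches was not counted, so these counts have no background. The tRNA mt-Ti was 2-fold lower in the mandibular arch at both stages. Beside these values stand the cytosolic ribosomal protein genes, with medians of -0.72 and 0.37 in the E9.5 mandibular and maxillary arch and 0.66 and -1.13 at E10.5, and other genes of at least 700 and under 1000 bases, at -0.24 and 0.25, and 0.24 and -0.62. Blood markers averaged 5.57 in the mandibular and 7.56 in the maxillary arch at E9.5 and 6.68 and 5.08 at E10.5, the same order as the nuclear subunits. Muscle markers averaged 1.94 and 0.84, and neural markers 0.07 and 1.31, at E9.5. The part of all these in the arch differences was not tested.

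Genes that build or regulate the chain were described from lists beside the glycolytic enzymes. In neural epithelium, of 25 assembly factors of complexes I to V, 1 rose and 6 fell from E8.5 to E10.5, where 5.76% of all genes rose and 7.05% fell. Those that fell include Cox17, the copper chaperone of complex IV (log2 difference -2.14, limma adjusted p = 0.0094), Cox10, which makes its haem (-1.61), and Coa3 (-1.98), and Lyrm7, a chaperone of the complex III iron-sulphur protein, rose (2.55-fold). Among 11 genes of mitochondrial DNA and its transcription, 1 fell: Tfam, which packages that DNA (-1.01, limma adjusted p = 0.0415). Among 7 regulators, the coactivator Ppargc1a rose (1.90, limma adjusted p = 0.0322) and its relative Pprc1 fell (-1.27). Nrf1 had a log2 difference of -0.78 (adjusted p = 0.203), and Gabpa and Yy1 had 0.20 and -0.01; none of the 3 passed. Of 15 genes of the TCA cycle and pyruvate dehydrogenase, 1 fell, Suclg1 (-0.97, limma adjusted p = 0.04999), a share near that of all genes, as in the mitochondrial DNA list. Of 15 glycolytic genes, 0 rose and 11 fell (median -1.69, against 0.03 over all genes), among them Ldha, which makes lactate (9.65-fold lower), Eno1 (6.28-fold) and Aldoa (5.55-fold). Cytosolic ribosomal protein genes fell in 46 of 85 and mitochondrial ones in 22 of 76, with medians of -2.02 and -0.96. Without the library labelled medial nasal prominence, where 9.16% of all genes rose and 10.4% fell, 7 assembly factors, 3 of 10 genes of mitochondrial DNA, 3 of the TCA cycle list, 13 of glycolysis, 64 cytosolic and 29 mitochondrial ribosomal protein genes fell.

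Between E9.5 and E10.5 in the face, 7 of 15 glycolytic genes fell and 0 rose, where 3.09% of all genes fell and 3.52% rose, with Ldha 3.35-fold and Eno1 3.27-fold lower. Of the assembly factors, 1 of 25 fell (Coa5, log2 difference -1.11). Among the regulators, Esrra, a nuclear receptor that works with Ppargc1a, rose (0.73) and Pprc1 fell (-1.36). Limma called 0 of 11 genes of mitochondrial DNA and transcription, with 1 at an unadjusted p under 0.05, and 0 of 15 of the TCA cycle list, with 5. The share of all genes at the unadjusted threshold is not given here. Cytosolic ribosomal protein genes rose in 1 and fell in 6 of 85, and mitochondrial ones fell in 4 of 76. The assembly and mitochondrial ribosomal counts are near the share of all genes. The counts moved without the library labelled medial nasal prominence, where 13.1% of all genes rose and 10.2% fell: 8 of 15 glycolytic genes, 7 of 25 assembly factors, 5 of 15 of the TCA cycle list, 2 of 7 regulators, 14 mitochondrial and 9 cytosolic ribosomal protein genes fell, and 1 assembly factor, 1 regulator, 2 of 10 genes of mitochondrial DNA, 2 mitochondrial and 2 cytosolic ribosomal protein genes rose.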

How the data were processed

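The members and all gene lists were chosen with earlier results of these data known. Per the labels, total RNA was read as 50-base single-end reads. Bowtie, TopHat, TopHat2, Cufflinks and mouse build mm9 are named in the submitters' processing notes; no source used here gives their versions, the annotation or the unit before division. What the authors deposited is a ratio: across the 16 libraries the median of each of the 15876 genes is 1 (tolerance 1e-06), which shows division by the gene's own median. Headers of the central and dorsal control neural files carry each other's abbreviations; both belong to 1 class, and single values follow the sample each file is filed under.

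Values were taken as log2 and centred on the median of the 7082 genes with no shared lowest value. Classes were compared with limma 3.58.1 (R 4.3.3) in 1 fit of 13 libraries and 4 classes, on 12343 genes above their lowest value in at least 3 libraries, with Benjamini-Hochberg adjustment; the fit was tested on simulated data. Region pairs had 1 library a side and were counted at 2-fold, leaving out genes at a shared lowest value in both. Named genes were up to 10 called members per direction with the lowest adjusted p, all mitochondrial members, the members of largest and smallest SD in each complex, members of wide range, isoform genes and members past 2-fold alike in both arch comparisons; others named were chosen after their values were seen. The NRF1 and YY1 letters were shortened after longer forms had been searched. The depth per library is unknown, so no counting interval is given, and p-values measure spread between regions. Alternatives covered centring, the filter on low values, the fit, a trend, a fold minimum, transcript length and leaving out each library.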

Additional observations from a re-analysis of the deposited data

Results flagged for a closer look

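The nuclear subunits of complexes I to V, taken as 1 set, differed in opposite directions between the 2 stages and between the 2 arches, with 1 library a side. Mandibular against maxillary arch, their median log2 difference was -1.17 at E9.5 and 1.53 at E10.5. From E9.5 to E10.5 it was 1.42 in the mandibular arch and -1.35 in the maxillary arch. The 2 contrasts rest on the same arch libraries and are not independent. As deposited, the 4 medians were -1.22, 1.66, 0.48 and -2.47, so the directions held and the sizes over time did not. Complex II kept its sign in both contrasts, at 0.17 and 0.61, and at -0.18 and -0.52. The difference between these pairs was not tested, since no region and stage has a second library.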

How the results depend on the processing

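The labels give no replicate numbers. The face stages can be paired by region in the 2 arches. A fit of those 4 libraries took region as a replicate block, was chosen after seeing the data and had 1 residual degree of freedom. By limma it called 0 members higher and 0 lower (0.00872% of all genes called in each direction). At an unadjusted limma p under 0.05 there were 28 of 117 members, and the share of all genes at that threshold is not given here. On simulated data that fit passed no changed gene after adjustment, so calls lost in it say nothing about stability. Shares of all genes called are given in brackets. In neural epithelium (1 member higher and 17 lower at E10.5), values as deposited gave 0 and 30 (1.52% and 8.80%), a fit of the 2 classes alone 5 and 47 (7.68% and 11.1%), and centring within transcript length ranges, also chosen after seeing the data, 9 lower (6.14%). Leaving out a library gave 1 to 2 higher and 4 to 27 lower (2.33% to 9.16% and 2.99% to 10.4%). In the face (1 higher, 4 lower), values as deposited gave 12 lower (15.3%), and genes with no shared lowest value 3 higher (3.94%). There, the fit of 2 classes gave 0 and 1 (0.279% and 0.409%), a mean-variance trend 2 lower (2.35%), and length ranges 3 and 2 (3.44% and 2.35%). Leaving out a library in the face comparison gave 0 to 16 higher and 1 to 8 lower (0.234% to 13.1% and 0.292% to 10.2%). For E10.5 neural against face (0 and 0), leaving out a library gave 0 higher and 0 to 8 lower (0% to 3.49% and 0% to 3.77%). Other settings gave 0. Between the E9.5 arches (2 higher, 45 lower), values as deposited gave 1 higher (3.57%), and 3-fold gave 0 and 24 (1.02% and 2.16%); at E10.5, 3-fold gave 13 lower (2.63%). From E9.5 to E10.5, values as deposited gave 35 higher and 23 lower in the mandibular (3.99% and 44.5%) and 17 and 77 in the maxillary arch (3.62% and 49.2%), and 3-fold gave 3 lower in the mandibular arch (5.57%). As deposited, the log2 range of library medians was 2.83 in complex I, 2.0 in complex II, 3.37 in complex III, 3.09 in complex IV and 1.53 in the tRNAs. The causes of these shifts were not tested, except that fewer libraries enter where 1 is left out or 2 arches are paired. Only mt-Nd3 in the face changed direction among called members and mitochondrial mRNAs of both stage comparisons, to -0.043 as deposited (limma adjusted p = 0.949). The 18 called members of the neural comparison kept their call in 299 of 376 gene and setting pairs and lost it in 77; in the face, the 5 called kept it in 60 of 110 and lost it in 50. Depth is unknown, and values at a shared lowest value cannot show a further fall.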

Other observations

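The 3 regions that stood alone belong in no class comparison, and each was read once. E9.5 epidermal ectoderm held the lowest values of Atp5k (-4.63) and Ndufa2 (-4.32), on the log2 scale relative to the median gene, and Cox7a2 stood at -2.75. The complex II genes Sdha (0.36) and Sdhc (0.52) were above 0 there, and the median of the 9 mitochondrial mRNAs was -0.36. E8.5 mesoderm had a nuclear subunit median of 0.54 and a mitochondrial mRNA median of -1.27, and as deposited, it held the highest values of the isoform genes Cox4i2, Cox6b2 and Ndufa4l2. In the E10.5 olfactory pit, the complex V subunit Atp5d stood at 1.54 and the complex III subunit Uqcr11 at 1.68, while the tRNA mt-Tt stood at -2.68.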
